A study of Saccharomyces cerevisiae with 8 samples.

Results

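Thiamine (vitamin B1) becomes an enzyme cofactor as thiamine diphosphate, which the decarboxylases of fermentation, the transketolases and the pyruvate and 2-oxoglutarate dehydrogenases need. Budding yeast takes thiamine up or builds it from a thiazole and a pyrimidine (HMP) that are made separately, activated and joined. When thiamine is scarce, the genes for these steps are switched on by the regulators Thi2, Thi3 and Pdc2. The 10 genes described here, chosen by name, were THI2 (YBR240C), THI3 (YDL080C), THI4 (YGR144W), THI6 (YPL214C), THI7 (YLR237W), THI20 (YOL055C), THI21 (YPL258C), THI22 (YPR121W), THI80 (YOR143C) and PHO3 (YBR092C), out of 6534 in the count table. The list has no threshold, and it was drawn up with earlier results of the same libraries known, so its counts are given as a description. All 10 were in the table and passed the filter on low counts.

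The 8 libraries of polyadenylated RNA came from Saccharomyces cerevisiae labelled BMA41, either wild type or a derivative, so the labels, with MUB1 deleted (mub1). Cells in exponential phase spent 5 hours in chemically defined medium, either plain (0 µg/ml) or holding 20 µg/ml of the dye Calcofluor white (CFW), which binds chitin and stresses the cell wall. MUB1 encodes a partner of the ubiquitin ligase Ubr2. Each of the 4 groups had 2 libraries, and the labels do not say whether these came from separate cultures. The p-values therefore reflect the spread between libraries alone, which may be technical. In bulk RNA a smaller share of expressing cells and less RNA per cell cannot be told apart.

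Library totals ran from 24147195 to 31677985 counts. As a check of the labels, MUB1 itself had 1042 to 1226 counts in each wild-type library and 0 or 1 in each mub1 library. LEU2, URA3 and MET17 had 0 to 2 counts in the wild-type libraries and 2621 to 7122 in mub1, and TRP1 had 909 to 989 and 0. The deletion of MUB1 is the only strain difference in the sample titles. The counts of MUB1 go with the titles, which do not account for the counts of these marker genes. MUB1 and these marker genes part the same libraries, as would any other difference between the 2 strains. In every genotype comparison and in the interaction below, the parts of MUB1, the markers and the rest of the strain background cannot be told apart. The summed level of 5 markers of a cells was 918.1 to 1520 CPM (counts scaled to a library total of a fixed size, with TMM factors) in the wild type and 528.7 to 617 CPM in mub1, with 5 of 5 lower in mub1 in both media. For 4 markers of alpha cells the sums were 61.62 to 71.27 CPM in the wild type and 47.57 to 53.99 CPM in mub1. Of these markers MF(ALPHA)1 alone had the higher mean in mub1, in both media. Over all libraries the sums were 52.81 to 70.64 CPM for 3 meiotic genes. The part of these differences in the results was not tested. The wild-type libraries with CFW differed most from one another, with a chi-square per gene of 75.92 between replicates against 11.38 to 29.66 in the other groups.

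THI4 on chromosome VII (780399 to 781379, plus strand) makes the thiazole half-molecule and gives up its own sulfur in doing so. THI7 on chromosome XII (612367 to 614163, plus strand) is the thiamine transporter of the plasma membrane, and THI2 on chromosome II (700490 to 701842, minus strand) is an activator of the pathway. Each of the 10 genes is a single coding exon in build R64, with no overlapping gene in the RefSeq annotation. The 300 bases before the start codon of these 3 genes are shown because they gave the largest differences described below. Each is read towards the gene, 5′ to 3′, from RefSeq build R64, at chrVII:780099-780398, chrXII:612067-612366 and chrII:701843-702142. Capitals mark GATAAG, the core of GATA-factor sites, read on the other strand before THI4, and TGACTC, the core of Gcn4 sites, before THI2.
THI4: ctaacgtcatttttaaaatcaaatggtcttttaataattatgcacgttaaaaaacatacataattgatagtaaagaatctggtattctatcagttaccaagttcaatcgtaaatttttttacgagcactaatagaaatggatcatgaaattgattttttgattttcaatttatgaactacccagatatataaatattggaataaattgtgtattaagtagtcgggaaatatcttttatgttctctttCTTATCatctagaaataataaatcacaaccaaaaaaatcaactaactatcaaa
THI7: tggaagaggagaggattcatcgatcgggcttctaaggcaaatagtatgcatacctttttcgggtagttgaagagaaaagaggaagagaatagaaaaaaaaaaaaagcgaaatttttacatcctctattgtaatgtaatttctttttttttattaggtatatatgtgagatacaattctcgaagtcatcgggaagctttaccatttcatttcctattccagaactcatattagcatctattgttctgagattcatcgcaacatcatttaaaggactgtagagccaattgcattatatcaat
THI2: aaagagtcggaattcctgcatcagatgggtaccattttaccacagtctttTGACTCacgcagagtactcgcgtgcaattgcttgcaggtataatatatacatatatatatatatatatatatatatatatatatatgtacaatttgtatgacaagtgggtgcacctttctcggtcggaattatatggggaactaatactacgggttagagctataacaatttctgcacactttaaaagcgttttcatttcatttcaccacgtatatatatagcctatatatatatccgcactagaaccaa

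Known short motifs were searched on both strands of this window before 6020 protein-coding genes. TGACTC stood in 1 of the 10 windows and in 7.74% of all windows. GATAAG stood in 3 (THI4, THI6 and THI80) and in 14.6% of all. TTACTAA of Yap1 stood in 2 (THI21 and PHO3) and in 7.86% of all. GGTGGCAAA of Rpn4, the best-known target of Mub1 and Ubr2, was in none of the 10 windows and in 1.21% of all, and CACGTG of Pho4 was in none and in 3.55% of all. No searched motif was common to the 10 genes. A match of letters is a description, neither a site nor a cause, and no match says only that the letters are absent from this window.

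THI20, THI21 and THI22 are relatives of one another that encode HMP kinases (THI20, THI21) and a related protein (THI22). Their windows held the word GGAAACCNTTAGAGC, which was in no other of the 6020 windows. It was chosen after the windows had been read, and the 3 genes share ancestry. Bases 1 to 6 and 11 to 13 of it, written GGAAACNNNNAGA, were also chosen after the windows had been read. This shorter word stood before PHO3 as well, in 4 of the 10 windows against 0.731% of all. Its matches before THI20, THI21 and THI22 were fixed by that choice, and the match before PHO3 was open to it. This count, and that over other genes, are therefore descriptions and no test. Of 17 other thiamine and vitamin B6 genes, the shorter word stood before SNZ2, SNO2, SNZ3, SNO3, THI73 and PET18. SNZ2 and SNO2 read it from a single site between them, as do SNZ3 and SNO3, so these 10 genes of 27 held 8 distinct sites. The stretches of 60 bases are shown to let the copies be compared, with GGAAACNNNNAGA in capitals, at chrXV:226207-226266, chrXVI:55281-55340, chrXVI:778470-778529 and chrII:429287-429346 of build R64, each on the strand of its gene (plus for THI22, minus for the others).
THI20: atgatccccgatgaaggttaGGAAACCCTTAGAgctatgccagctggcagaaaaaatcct
THI21: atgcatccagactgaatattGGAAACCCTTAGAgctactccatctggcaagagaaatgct
THI22: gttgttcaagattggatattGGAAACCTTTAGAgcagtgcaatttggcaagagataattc
PHO3: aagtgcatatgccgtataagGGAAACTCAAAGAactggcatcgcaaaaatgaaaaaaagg
The word began 171, 167 and 93 bases before the start codons of THI20, THI21 and THI22, and 225 bases before that of PHO3.

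How reads that match more than 1 gene were treated is not given in the sources used here, so the separate counts of close relatives are uncertain. The coding sequences of THI20 and THI21 were 82.1% identical, those of THI20 and THI22 75.1%, and THI7 was 83.8% identical to NRT1 and 84.0% to THI72. PHO3 was 86.5% identical to PHO5, a phosphate-regulated acid phosphatase whose gene lies 446 bases away, with a longest shared run of 98 bases. None of the 150-base windows of the 10 genes had another exact copy in the R64 genome, which is of strain S288C. The first 60 coding bases of PHO3 (chrII:429042-429101, minus strand) and PHO5 (chrII:430892-430951, minus strand) show how close these are, with the 9 positions at which they differ in capitals.
PHO3: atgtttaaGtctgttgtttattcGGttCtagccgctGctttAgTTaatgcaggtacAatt
PHO5: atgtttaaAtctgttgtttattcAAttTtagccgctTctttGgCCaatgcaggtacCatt

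Per kilobase of coding sequence and in the wild type without CFW, PHO3 had the highest level of the 10 genes, at 147.1 CPM per kb. THI6, THI3, THI20, THI80 and THI7 followed at 40.71, 36.81, 24.53, 18.95 and 13.58 CPM per kb. THI22, THI21, THI2 and THI4 were lowest, at 8.403, 8.05, 4.382 and 3.766. In mub1 with CFW, THI4 stood at 66.4 CPM per kb, second to PHO3 at 151.2.

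**Figure D1:**
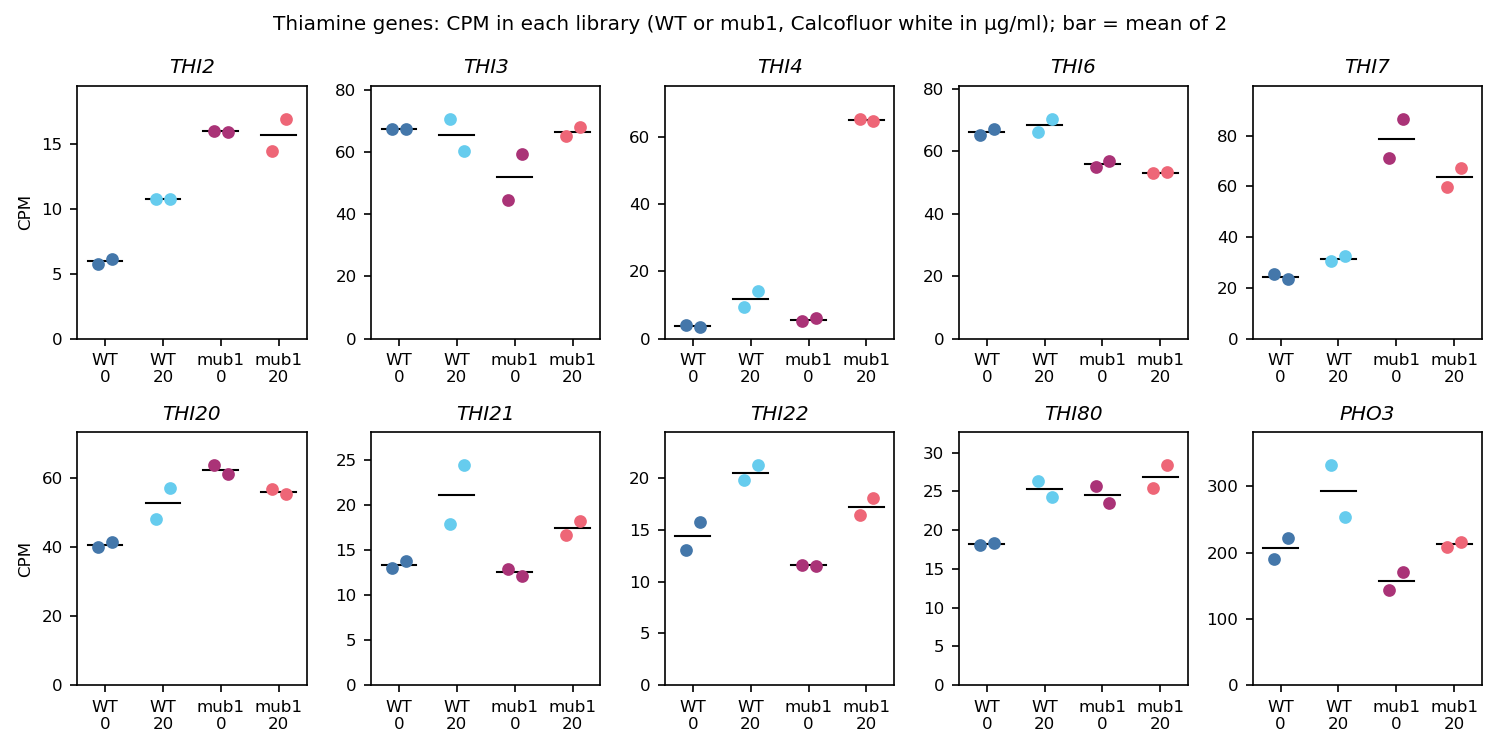
CPM (vertical axis, from 0) of each thiamine gene in each library, by genotype and CFW in µg/ml (horizontal axis); points are libraries and bars the mean of 2. THI4 stands at 64.77 and 65.5 CPM in mub1 with CFW and at no more than 14.12 CPM in any other library.

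The genotypes without CFW show what differed after 5 hours in plain medium. Of the 10 genes, THI7 and THI2 changed the most, being 3.235 times and 2.692 times higher in mub1. Of the 10 genes 5 rose, 3 fell and 2 did not pass the quasi-likelihood test of edgeR (p adjusted over all tested genes after Benjamini and Hochberg, threshold 0.05), against 42.9% of 5954 tested genes that changed (22.1% higher, 20.8% lower). Their median log2 fold change was 0.17, against -0.01 over all tested genes.

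Among the regulators, THI2 had 5.769 and 6.089 CPM in the wild type and 16.01 and 15.92 CPM in mub1. The groups lay apart, by 1.43 ± 0.14 on the log2 scale (± SE, n = 2 per group, adjusted p = 8.323e-05). THI3, a thiamine diphosphate-binding regulator, had 67.47 and 67.26 CPM against 44.45 and 59.31 CPM. Both mub1 libraries were lower but differed from each other, and the change was -0.38 ± 0.13 (adjusted p = 0.0407). For PDC2, the DNA-binding partner of Thi3, the mean was 60.92 ± 2.98 CPM (SD, n = 2) in the wild type and 53.28 ± 0.0673 CPM in mub1, which did not pass (-0.19 ± 0.07, adjusted p = 0.0529).

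The transporter gene THI7 had 25.41 and 23.38 CPM in the wild type and 71.2 and 86.63 CPM in mub1. It gave the largest genotype difference of the 10 genes without CFW, at 1.69 ± 0.11 (adjusted p = 8.454e-06). PHO3, a secreted acid phosphatase that frees thiamine from its phosphates outside the cell, fell from 190.6 and 222.6 CPM to 143.2 and 170.2 CPM (-0.40 ± 0.13, adjusted p = 0.039). Its neighbour PHO5 fell much further, from 153.1 ± 16.1 to 22.09 ± 0.229 CPM (SD, n = 2). PHO3 and PHO5 were summed among the alternatives, but a sum cannot show how reads were divided between them, which was not tested.

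For the synthesis enzymes the picture was mixed. THI20 rose from 39.87 and 41.36 CPM to 63.6 and 61.02 CPM (0.62 ± 0.09, adjusted p = 0.000756). Its relatives did not pass: THI21 was at -0.10 ± 0.16 (adjusted p = 0.657) and THI22 at -0.32 ± 0.13 (adjusted p = 0.0814). With the 3 genes summed the difference was 0.34 (adjusted p = 0.0161). THI4 was low in both genotypes, at 3.898 and 3.491 CPM against 5.159 and 6.079 CPM, a rise of 0.61 ± 0.21 (adjusted p = 0.0429). THI80, the thiamine pyrophosphokinase that makes the cofactor, rose from 18.2 ± 0.157 to 24.58 ± 1.61 CPM (SD, n = 2), by 0.43 ± 0.11 (adjusted p = 0.00995). THI6, which joins the thiazole and pyrimidine parts, fell slightly, from 66.07 ± 1.28 to 55.99 ± 1.43 CPM (-0.24 ± 0.07, adjusted p = 0.0224).

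The calls for THI2, THI7 and THI20 held without any 1 library. Without wild type, no CFW, replicate 1 or 2, or mub1, no CFW, replicate 1, these were the 3 calls left, since THI3, THI4, THI6, THI80 and PHO3 had adjusted p up to 0.257. THI4 and THI6 also lost theirs without mub1, no CFW, replicate 2 (6 calls left), and THI3, THI4 and PHO3 without either mub1 library with CFW (5 left).

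**Figure D2:**
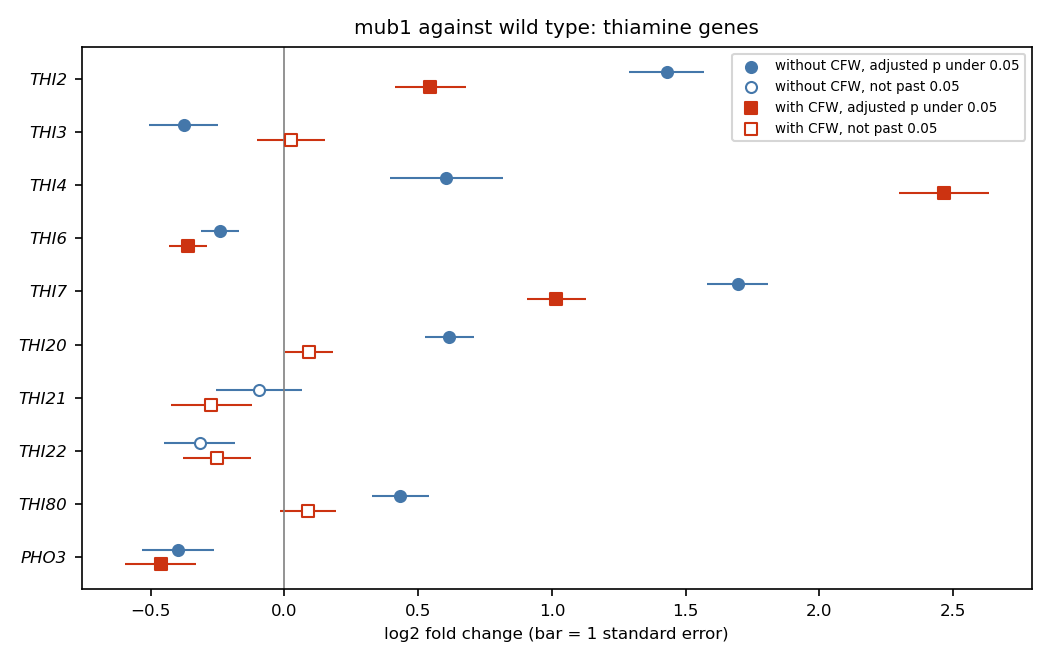
Log2 fold change of mub1 against wild type (horizontal axis, bars 1 SE) for each thiamine gene, without CFW (circles) and with CFW (squares); filled points passed adjusted p under 0.05. THI7 is at 1.69 and 1.02, and THI4 at 0.61 and 2.47.

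With CFW in the medium, THI4 stood apart: it was 5.521 times higher in mub1 than in the wild type. THI7 and THI2 were still higher in mub1, THI6 and PHO3 lower, and the other 5 did not pass. Here 35.9% of 5954 tested genes changed (18.6% higher, 17.3% lower), and the median log2 fold change of the 10 genes was 0.06 against -0.01 over all.

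THI4 had 9.475 and 14.12 CPM in the wild type with CFW and 65.5 and 64.77 CPM in mub1 with CFW. Both mub1 libraries lay above both wild-type libraries (2.47 ± 0.17, adjusted p = 9.537e-06). THI7 had 30.43 and 32.52 CPM against 59.82 and 67.46 CPM (1.02 ± 0.11, adjusted p = 0.000166). In THI2 the genotypes were also apart but closer to each other, with 10.73 and 10.75 CPM against 14.44 and 16.9 CPM (0.55 ± 0.13, adjusted p = 0.0104). For THI6 the values were 66.13 and 70.32 CPM against 52.98 and 53.23 CPM (-0.36 ± 0.07, adjusted p = 0.00377). PHO3 had 331.4 and 253.5 CPM against 208 and 216.4 CPM (-0.46 ± 0.13, adjusted p = 0.0244). In all 5 genes called the genotypes did not overlap, but nor did they in THI22, which was not called. How many of all tested genes had no overlap was not counted.

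THI20 (0.09 ± 0.09), THI80 (0.09 ± 0.10), THI3 (0.02 ± 0.13), THI21 (-0.27 ± 0.15) and THI22 (-0.25 ± 0.13) did not pass, and the libraries of the genotypes overlapped in all of these but THI22. PHO3 lost its call without wild type, CFW, replicate 1, where it was at -0.27, without either mub1 library with CFW (adjusted p up to 0.12), and in a fit of the 4 CFW libraries alone (0.0563). THI2 lost its call without mub1, CFW, replicate 2 (adjusted p 0.0978), which left 3 calls, and THI21 gained one without wild type, CFW, replicate 1 (-0.49, adjusted p = 0.0134).

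CFW in the wild type raised thiamine genes across several steps. THI4 rose 3.188-fold and THI2 1.811-fold, and THI20, THI21, THI22, THI80 and PHO3 rose by 1.294 to 1.583-fold. Of the 10 genes 7 rose, 0 fell and 3 did not pass, against 19% of 5954 tested genes that changed (10.3% higher, 8.7% lower), and their median log2 fold change was 0.49 against -0.01 over all.

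The thiazole synthase gene THI4 went from 3.898 and 3.491 CPM to 9.475 and 14.12 CPM, higher in both CFW libraries (1.67 ± 0.20, adjusted p = 0.00104). THI2 went from 5.769 and 6.089 CPM to 10.73 and 10.75 CPM (0.86 ± 0.14, adjusted p = 0.00432). THI21 had 12.94 and 13.72 CPM without and 17.85 and 24.35 CPM with the dye (0.66 ± 0.16, adjusted p = 0.0196). The CFW replicates of THI21 differed from each other by more than the lower of them differed from the untreated pair. THI22 rose by 0.51 ± 0.13, PHO3 by 0.50 ± 0.13, THI80 by 0.48 ± 0.11 and THI20 by 0.37 ± 0.09 on the log2 scale. The media did not overlap in these 4 genes, nor in THI7, which did not pass. Here too, the share of all tested genes without overlap was not counted. THI7 (0.37 ± 0.11, adjusted p = 0.051), THI6 (0.05 ± 0.07) and THI3 (-0.04 ± 0.13) did not pass. THI7 did pass with upper-quartile scaling, with library totals, by DESeq2 and without wild type, CFW, replicate 1 or either mub1 library lacking CFW (adjusted p from 0.0282).

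The calls for THI2 and THI4 held without any 1 library. Without wild type, no CFW, replicate 1 or 2, and in a fit of the 4 wild-type libraries alone, these were the 2 calls left. Without wild type, CFW, replicate 2, THI20, THI21 and THI22 did not pass (4 left), and PHO3 did not pass without wild type, CFW, replicate 1 or either mub1 library with CFW. The largest adjusted p among these was 0.207.

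In mub1 the largest CFW change of the 10 genes was again in THI4, which rose 11.56-fold. THI22, THI21 and PHO3 rose by 1.354 to 1.49-fold, and 6 genes did not pass, so that 4 rose and 0 fell. Here 27.7% of 5954 tested genes changed (13.8% higher, 14% lower), and the median log2 fold change of the 10 genes was 0.24 against 0.00 over all.

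THI4 went from 5.159 and 6.079 CPM to 65.5 and 64.77 CPM, so the treated replicates nearly coincided (3.53 ± 0.18, adjusted p = 7.344e-06). In counts this was 125 and 160 against 1742 and 2070. THI22 rose by 0.58 ± 0.13 (11.6 ± 0.0628 to 17.26 ± 1.12 CPM, SD, n = 2), THI21 by 0.48 ± 0.16 and PHO3 by 0.44 ± 0.13. THI2, which CFW raised in the wild type, had 16.01 and 15.92 CPM without and 14.44 and 16.9 CPM with CFW (-0.03 ± 0.13, adjusted p = 0.902). For THI7 the value was -0.31 ± 0.11 (adjusted p = 0.0558), for THI3 0.36 ± 0.13 (adjusted p = 0.0642), for THI20 -0.15 ± 0.09, for THI6 -0.08 ± 0.07 and for THI80 0.13 ± 0.10.

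The call for THI4 held without any 1 library. THI21 and PHO3 lost theirs without any 1 library lacking CFW or either mub1 library with CFW (adjusted p up to 0.241), and THI22 without either mub1 library lacking CFW or without mub1, CFW, replicate 2 (up to 0.085). Without that last library THI4 was the 1 call left. THI7 passed, lower with CFW, without mub1, no CFW, replicate 1 or either wild-type library with CFW, and THI3 passed, higher, without mub1, no CFW, replicate 2 or either wild-type library with CFW. Both also passed by DESeq2 and in a fit of the 4 mub1 libraries alone, and THI3 with upper-quartile scaling (adjusted p = 0.0495) and library totals (0.0377). Summed as 1 feature, THI20, THI21 and THI22 were at 0.07 (adjusted p = 0.596).

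**Figure D3:**
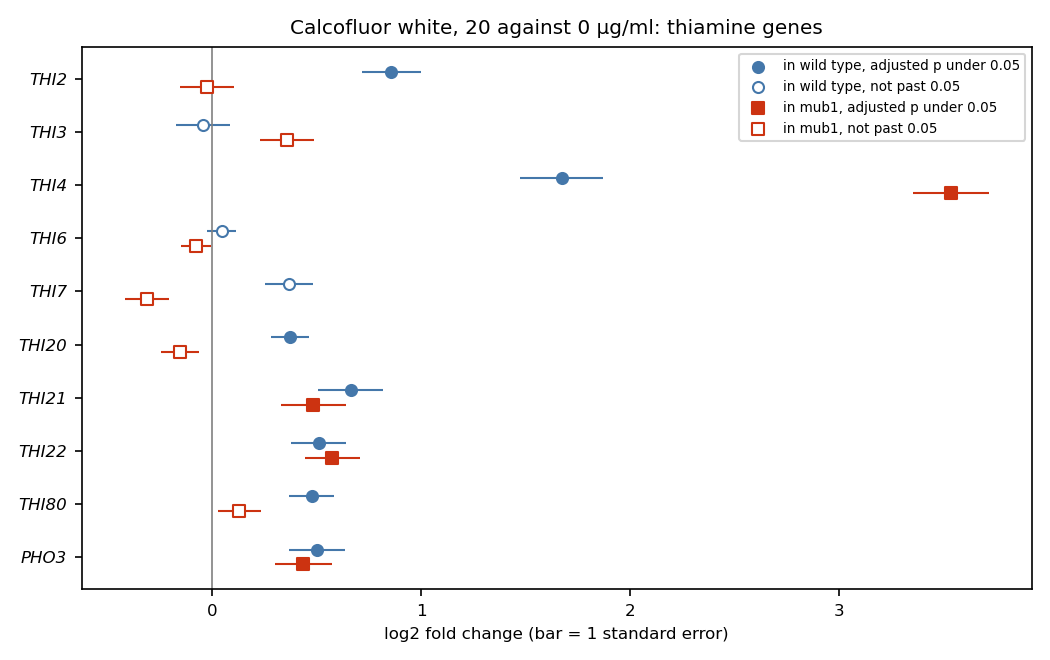
Log2 fold change with CFW, 20 against 0 µg/ml (horizontal axis, bars 1 SE), for each thiamine gene in the wild type (circles) and in mub1 (squares); filled points passed adjusted p under 0.05. THI4 is at 1.67 in the wild type and 3.53 in mub1, and THI2 at 0.86 and -0.03.

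Whether CFW acted differently in the genotypes was tested by their interaction, in which 2.5% of 5954 genes were called (0.89% higher, 1.61% lower). THI4 and THI2 passed, in opposite directions. The CFW effect on THI4 was larger in mub1 by 1.86 ± 0.27 on the log2 scale (adjusted p = 0.0153), and for THI2 the interaction was -0.88 ± 0.19 (adjusted p = 0.0478). THI7 (-0.68 ± 0.16, adjusted p = 0.0549) and THI20 (-0.53 ± 0.13, adjusted p = 0.0614) did not pass but did so by DESeq2 and without wild type, CFW, replicate 1, and THI7 also without replicate 2 of that group. The remaining 6 genes ran from -0.35 ± 0.15 (THI80) to 0.40 ± 0.18 (THI3).

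For THI4 the interaction lay between 1.59 and 2.17 without any 1 library, but it lost its call (adjusted p 0.0561 to 0.111) without either wild-type library lacking CFW, mub1, no CFW, replicate 1, or either mub1 library with CFW. THI2 lost its call without any 1 of the 6 libraries other than wild type with CFW (adjusted p 0.107 to 0.177), and with upper-quartile scaling (0.0536).

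The order of the groups differed by gene. For THI7 and THI2 it was wild type without CFW, wild type with CFW, mub1 with CFW, mub1 without CFW, with the mub1 groups overlapping in THI2. In THI4 it was wild type without CFW, mub1 without CFW, wild type with CFW, mub1 with CFW, and no neighbours in this order overlapped. For THI21, THI22 and PHO3 mub1 without CFW was lowest and wild type with CFW highest. The CFW groups overlapped in THI21, and wild type without CFW overlapped mub1 with CFW in PHO3. For THI20 the order was that of THI7, with the CFW groups overlapping, and for THI80 that of THI4, where only wild type without CFW lay apart. For THI6 it was mub1 with CFW, mub1 without, wild type without and wild type with CFW, with the wild-type groups overlapping. For THI3 mub1 without CFW lay below the other groups, which overlapped. The share of all tested genes with groups apart in this way was not counted.

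By Pearson's r of log2 CPM over the 8 libraries, which fall into 4 groups, the genes most like THI4 were SNZ1, a vitamin B6 synthesis gene (r = 0.985), RPC53 of RNA polymerase III (0.977) and DUN1, a checkpoint kinase (0.977). SNZ1 ran from 18.98 to 43.35 CPM and THI4 from 3.491 to 65.5 CPM. Most like THI20 were RMD5, a ubiquitin ligase subunit (0.980), YET2 (0.976) and BNA4 of the kynurenine route (0.974). Most like PHO3 were BNI5 of the septin ring (0.987), AIR1 (0.976) and SER2 of serine synthesis (0.971). Within the 10 genes r was 0.919 between THI2 and THI7, 0.927 between THI2 and THI20, and 0.92 between THI21 and THI22, but 0.157 between THI20 and THI21.

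Outside the 10 genes, a list of the 4 HMP synthases and 6 vitamin B6 synthesis genes (SNZ and SNO) was followed. In mub1, 4 of these 10 genes rose, 0 fell and 6 did not pass in each medium, against 22.1% of all tested genes higher without and 18.6% with CFW, and the median log2 fold changes were 0.71 and 0.65. SNZ3 rose by 1.28 ± 0.12 without CFW and 1.32 ± 0.12 with it, and SNZ2 by 0.98 ± 0.14 and 1.09 ± 0.14. SNZ1 did not pass without CFW (0.19 ± 0.10) and rose with it (0.78 ± 0.10). THI12 (1.51 ± 0.31) and THI5 (1.97 ± 0.43) rose without CFW, at means of 1.791 and 0.6755 CPM in the wild type. THI5, THI11, THI12 and THI13 share up to 99.3% of their coding bases, so their separate counts are uncertain.

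Of 5 transporter and carrier genes, 2 rose without CFW (NRT1 0.45 ± 0.15, a nicotinamide riboside transporter related to THI7, and THI72 0.54 ± 0.14) and THI72 alone with it (0.61 ± 0.14). Of all tested genes, 22.1% rose without and 18.6% with CFW. THI73, THI74 and the mitochondrial carrier gene TPC1 did not pass in either medium. PET18, which resembles thiaminases, rose in mub1 by 1.02 ± 0.15 without and 0.43 ± 0.14 with CFW. Among 11 enzymes that use thiamine diphosphate, 3 rose, 1 fell and 7 did not pass in each genotype comparison, a share called near that of all tested genes (42.9% without and 35.9% with CFW). ARO10, a decarboxylase of amino acid breakdown, rose by 2.61 ± 0.13 and 2.73 ± 0.13, the transketolase gene TKL2 by 1.51 ± 0.22 without CFW, and KGD1 of 2-oxoglutarate dehydrogenase by 0.87 ± 0.12 and 0.42 ± 0.12. ILV2 of branched-chain amino acid synthesis fell without CFW (-0.49 ± 0.12) and rose with it (0.48 ± 0.12). PDC1, the main pyruvate decarboxylase, did not pass in either (0.28 ± 0.13 and 0.01 ± 0.13). PXP1, a peroxisomal relative, fell with CFW (-0.33 ± 0.10). The acid phosphatase genes PHO5 (-2.79 and -3.995) and PHO12 (-2.69 and -2.79) fell in both media.

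**Figure D4:**
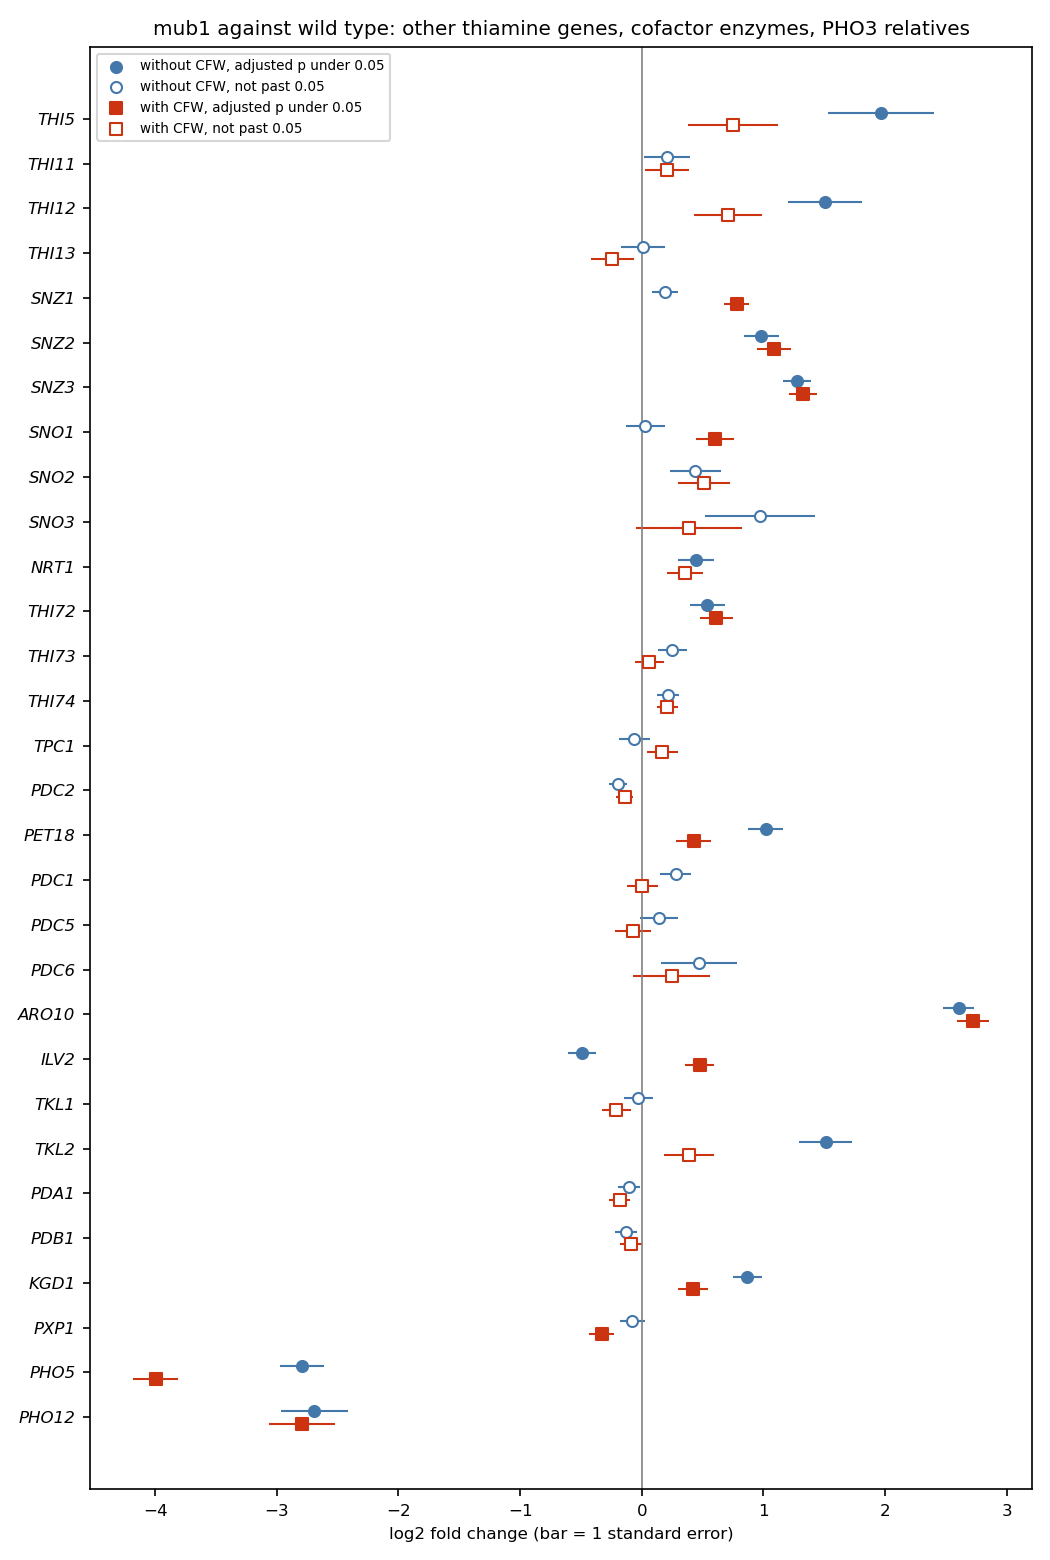
Log2 fold change of mub1 against wild type (horizontal axis, bars 1 SE) for further genes: the HMP synthase and vitamin B6 list, transporters, PDC2, PET18, thiamine diphosphate enzymes and acid phosphatases; circles without CFW, squares with CFW, filled where adjusted p was under 0.05. ARO10 lies at 2.61 and 2.73 and PHO5 at -2.79 and -3.995.

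For the response to CFW, of the HMP synthase and vitamin B6 list 2 rose and 0 fell in each genotype, near the share of all tested genes that rose (10.3% in the wild type, 13.8% in mub1): SNZ1 (0.36 ± 0.10) and THI5 (2.82-fold) in the wild type, and SNZ1 (0.94 ± 0.10) and SNO1 (0.64 ± 0.15) in mub1. Among transporters 0 of 5 were called in the wild type, and in mub1 THI72 rose (0.42 ± 0.14) and NRT1 fell (-0.52 ± 0.15). Of the cofactor enzymes 3 rose and 2 fell in the wild type, and 3 rose and 3 fell in mub1, with TKL2 at 1.89 ± 0.22 and 0.77 ± 0.21. Beside these lists, 19% of all tested genes were called in the wild type and 27.7% in mub1. PDC2 was at -0.04 ± 0.07 and 0.01 ± 0.07.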

How the data were processed

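The deposited table held raw counts per gene, made by the authors with FastQC 0.12.1, HISAT2 2.2.1, genome build R64 and featureCounts 2.0.3, per the submitters' processing notes. Libraries were stranded and polyA-enriched, per the labels' protocols. The strand and multi-mapping settings of the counting are not given in the sources used here. A read that could not be placed between close relatives may have been dropped or shared.

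Counts were fitted with edgeR 4.0.16 in R 4.3.3 (quasi-likelihood test, TMM factors, 4 groups, 4 residual degrees of freedom). Of 6534 genes 5954 passed edgeR's filter on low counts. A change was called at an adjusted p (Benjamini-Hochberg, over all tested genes) below 0.05. The genotype, CFW and interaction comparisons share libraries, so their results are not independent. Totals of 24147195 to 31677985 put a count of 3, taken as the floor, at 0.0947 to 0.124 CPM. Levels between genes are per kilobase of coding length. The fitting steps were tested on simulated data.

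The 10 genes and all gene lists (other thiamine genes, cofactor enzymes, phosphatases, mating-type and meiotic markers) were chosen with earlier results of these data known. All 10 were named, and outside them the members of the lists and the 3 genes of highest Pearson correlation with THI4, THI20 and PHO3 among genes of at least 10 CPM on average. Alternatives were other scalings, no filter, DESeq2 1.42.0, a block for replicate number, the libraries of a comparison alone, each library left out, and summed relatives. Same-numbered libraries did not deviate together. PHO11 was not analysed here.

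Sequences came from the RefSeq R64 genome and annotation. The word shared by THI20, THI21 and THI22 was the longest stretch of their windows with at most 1 differing position. It and the shorter word were chosen after the windows had been read.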

Additional observations from a re-analysis of the deposited data

Results flagged for a closer look

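The interaction test of edgeR called a differing CFW effect between the genotypes in 2 of the 10 genes, against 2.5% of 5954 tested genes. Both calls were lost without some single libraries, and that of THI2 also with upper-quartile scaling. THI4 had an interaction of 1.86 on the log2 scale (adjusted p = 0.0153): CFW raised it 3.188-fold in the wild type and 11.56-fold in mub1, and both CFW libraries were higher in each genotype. THI2 had an interaction of -0.88 (adjusted p = 0.0478): CFW raised it 1.811-fold in the wild type, where both CFW libraries were higher, and in mub1 the CFW libraries lay on either side of the untreated pair.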

How the results depend on the processing

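Comparisons are given in the order genotype without and with the dye, dye in the wild type and then in mub1, and interaction. Leaving out 1 library at a time gave 1440 to 3223, 1274 to 2502, 269 to 1788, 531 to 2541 and 9 to 1779 genes called, and 3 to 8, 3 to 5, 2 to 8, 1 to 6 and 0 to 4 of the 10 thiamine genes. In fits of only the 4 libraries compared, 1419 genes were called for genotype with CFW, and 348 genes with 2 thiamine genes for CFW in the wild type. In the interaction DESeq2 called 557 genes and 4 thiamine genes, and upper-quartile scaling 1 thiamine gene. Same-numbered libraries correlated at -0.161 to 0.168 in their deviations. These weak correlations gave no sign of pairing, but they cannot show whether such libraries were handled together. With the replicate block 2376, 1941, 866, 1427 and 92 genes and 6, 5, 7, 2 and 1 thiamine genes were called. Not called there were THI3 and PHO3 for genotype without CFW, THI21 and PHO3 for CFW in mub1, and THI2 in the interaction (-0.89, adjusted p = 0.0706). Library totals moved the split for CFW in the wild type from 616 higher and 518 lower to 716 and 321, and for CFW in mub1 from 819 and 833 to 1001 and 695 (1007 and 686 with upper-quartile scaling). Some values that did not pass changed sign: THI2 under CFW in mub1 (0.0155 with upper-quartile scaling, 0.00282 with library totals) and THI3 under CFW in the wild type (0.000654 with totals). Without 1 library at a time these ran from -0.145 to 0.082 and from -0.154 to 0.0683, THI3 and THI20 for genotype with CFW from -0.0846 to 0.132 and from -0.0401 to 0.223, and the interactions of THI21, THI22 and PHO3 from -0.395 to 0.0635, -0.0793 to 0.186 and -0.245 to 0.131. THI20, THI21 and THI22 summed gave 0.337, -0.0544, 0.462, 0.0712 and -0.391, of opposite sign to THI21 and THI22 without CFW, to THI20 for genotype with CFW and CFW in mub1, and to THI22 in the interaction. Of 760 alternative values for single thiamine genes, 633 kept direction and call, 84 lost the call, 24 gained one and 19 changed sign. The causes were not tested. With 2 libraries a group and THI2 and THI4 below 7 CPM in the untreated wild type, small changes could not be told from the spread.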
